A study of Xenopus tropicalis with 39 samples.

Results

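In the Xenopus tropicalis embryo, 2315 of 55220 regions with a peak of Vegt, Otx1 or Foxh1 carried a peak of all 3 factors (4.19%). A region was built by joining all peaks of the 3 deposited lists that overlap by at least 1 bp, and its members were chosen by the measured peak positions alone, so that the presence of the 3 factors in these regions describes the choice and is not a finding. Of the other regions, 966 held Vegt and Otx1, 1646 Otx1 and Foxh1, 3537 Vegt and Foxh1, 14869 Vegt only, 205 Otx1 only and 31682 Foxh1 only. The study sequenced RNA in 33 samples and chromatin immunoprecipitates in 6 samples, and only the immunoprecipitates and the re-analysed Foxh1 data bear on these regions. Vegt and Otx1 were precipitated with antibodies from whole embryos fixed at stage 8, before the zygotic genome is activated (2 samples each). The mark H3K4me1 was precipitated from vegetal tissue dissected out of embryos fixed at stage 10.5 (2 samples). Foxh1 peaks came from data published earlier, which the authors processed again, and their names carry stage 8. No genotype, transgene or injected agent is given in the labels for these samples, and embryos were pooled, 200 to a tube for fixing and 100 vegetal masses to a sample of the mark.

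Vegt is a T-box transcription factor whose maternal RNA lies at the vegetal pole and which acts early in endoderm and mesoderm formation. Otx1 is a homeodomain factor of the Otx family, and Foxh1 is a forkhead factor that binds DNA with the Smad proteins of Nodal signalling. H3K4me1 is a histone modification found at enhancers, often on the nucleosomes to either side of the bound factors. The first question was therefore how strongly and in what arrangement the 3 factors occupy the regions they share before zygotic transcription, and the second was which of these regions carry H3K4me1 later in the vegetal tissue.

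Each list was deposited once over pooled replicates, so that no spread between replicates exists and no test was made. Intervals printed below are exact 95% binomial (Clopper-Pearson) intervals and cover counting error only. The depth of the immunoprecipitates is unknown from these lists. The fold enrichment of a peak is the authors' own value and is compared within a list, since lists differ in length and scale. Vegt had 21711 peaks with a median fold enrichment of 8.65, Otx1 5151 peaks with 4.68, Foxh1 39218 peaks with 14.4 and H3K4me1 15925 peaks with 3.09. All 3 factor lists drew on 1 library of the published Foxh1 series, whose role the design text does not give, and its part in the overlap of the lists was not tested.

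The three-factor regions were compact places of 3 superimposed peaks. In 2271 of the 2315 regions (98.1%) each factor had exactly 1 peak, and the other 44 held at most 5 peaks. A stretch common to peaks of all 3 factors existed in 2303 regions (99.5%) and had a median length of 320 bp, with quartiles of 274 and 384 bp. In the remaining 12 regions, 2 factors were joined only through a peak of the third, which was Foxh1 in 7 and Vegt in 5 of them. Regions were 285 to 2189 bp wide with a median of 581 bp, against a median of 325 bp for all 55220 regions. The widest component was the Foxh1 peak, with a median of 540 bp here against 308 bp in its whole list. Vegt peaks measured 408 bp here against 342 bp in their list, and Otx1 peaks 350 bp against 324 bp.

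The regions closest to the limit of the rule were as follows. Just inside it, Chr08:75918411-75918951 was held together by an overlap of 77 bp, Chr05:119514623-119515640 by 91 bp and scaffold_3387:4192-4533 by 162 bp. Just outside it, Chr08:90167681-90168693 held Otx1 and Foxh1 and missed a Vegt peak of fold enrichment 6.87 by 3 bp. Chr08:72963991-72964540 held Vegt and Otx1 and missed a Foxh1 peak of 8.69 by 45 bp. Chr01:114798445-114798807 held Otx1 and Foxh1 and missed a Vegt peak of 7.05 by 79 bp. Few regions lay so close to the limit: of the 6048 regions with 2 factors and a peak of the third on the same sequence, 6 had that peak within 100 bp and 355 (5.87%) within 1000 bp.

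The regions took very different shares of the 3 lists. This follows from the rule and the lengths of the lists, since nearly every region holds 1 peak of each. They held 2332 Otx1 peaks, which is 45.3% of the Otx1 list, but only 10.7% of the Vegt list (2331 peaks) and 5.94% of the Foxh1 list (2331 peaks). Otx1 peaks with neither partner were rare, at 205 regions that hold 3.98% of the list. Among the 100 strongest peaks of each list, 76 of Otx1, 65 of Foxh1 and 19 of Vegt lay in three-factor regions, and among the 10 strongest the numbers were 10, 8 and 5. With each list divided into quintiles (5 equal groups) by fold enrichment, the share of Foxh1 peaks in three-factor regions went from 0.662% in the weakest quintile to 1.33%, 2.37%, 5.16% and 20.2% in the strongest. For Otx1 it was 41.1%, 38.6%, 38.0%, 47.8% and 60.9%. For Vegt it was 12.2%, 9.11%, 10.2%, 10.8% and 11.2%. Thus Foxh1 peaks were found in the regions the more often the stronger they were, and Otx1 peaks mainly so in the 2 upper quintiles. Stronger Foxh1 peaks were also wider, and a wider peak overlaps others more easily. In regions with Foxh1 only, the median width went from 253 bp in the weakest quintile to 365 bp in the strongest. The part of width in these shares was not tested. The Vegt share was highest in the weakest quintile (interval 11.3 to 13.2) and lowest in the next (8.27 to 10.0). The intervals of the fourth (9.93 to 11.8) and the strongest Vegt quintile (10.3 to 12.2) overlapped that of the weakest.

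Foxh1 peaks in three-factor regions were strong for their list. The median Foxh1 fold enrichment in three-factor regions was 26.6, with quartiles of 19.5 and 33.7, which stood at percentile 89.4 of the list, and 1113 of the 2315 regions (48.1%) had a Foxh1 peak in the top decile. Regions of Otx1 and Foxh1 were next with a median of 24.7, followed by Vegt and Foxh1 with 16.3 and Foxh1 alone with 13.5. The 2 combinations with Otx1 thus had the stronger Foxh1 peaks, with or without Vegt. Otx1 peaks had a median of 4.87 (quartiles 4.23 and 5.84, percentile 58.3), close to the 4.86 of regions with Vegt and Otx1 and above the 4.34 of regions with Otx1 and Foxh1. Otx1 alone had a median of 4.63. Percentiles are not compared between factors, because the regions hold 45.3% of the Otx1 list and 5.94% of the Foxh1 list, and so large a share cannot lie near the top of its list.

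Vegt peaks in three-factor regions were of ordinary strength. Their median fold enrichment was 8.77 (quartiles 6.74 and 12.3, percentile 50.9), against 8.78 in regions with Vegt alone, and 257 were in the top decile of the Vegt list. Regions with Vegt and Otx1 but no Foxh1 had a median of 18.8, and 58.9% of their Vegt peaks were in the top decile. Regions with Vegt and Foxh1 but no Otx1 had the lowest median, 7.38. Vegt peaks joined by Otx1 were therefore strong where a Foxh1 peak was lacking and of average strength where one was present.

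**Figure D1:**
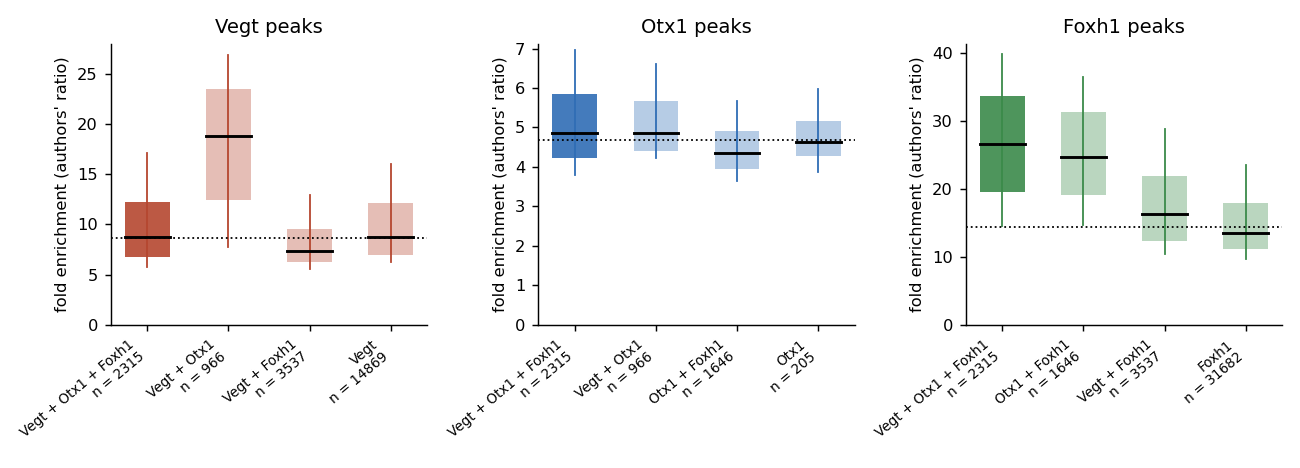
Fold enrichment of the strongest peak per region (vertical axis, the authors' ratio) for each combination of factors, with n regions; boxes span the quartiles, black lines are medians, thin lines run from the 10th to the 90th percentile and dotted lines mark the list medians. In three-factor regions (dark boxes) the Foxh1 median of 26.6 lies well above its list median of 14.4, while the Vegt median of 8.77 lies near its list median of 8.65.

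Within the three-factor regions, those with stronger Otx1 peaks also had stronger peaks of the other factors. From the weakest to the strongest quintile of regions by Otx1, the median Otx1 fold enrichment went from 3.80 to 6.96, that of Vegt from 7.30 to 10.6 and that of Foxh1 from 22.7 to 32.5. Ordered by Vegt instead, Foxh1 followed no such course, with medians of 25.2, 28.4, 27.2, 27.0 and 24.3 from the weakest to the strongest quintile. Regions with top-decile peaks of all 3 factors were few, at 42, while 277 had 2 such peaks, 1030 had 1 and 966 had none.

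The strongest regions by the mean percentile of their 3 peaks show what joint occupancy looks like at its upper end. Chr07:18623046-18623735, 690 bp wide, had a Vegt peak of fold enrichment 28.8, an Otx1 peak of 8.94 and a Foxh1 peak of 46.1, with all 3 summits within 23 bp and an H3K4me1 peak of 2.98. Another three-factor region lay 754 bp from it. Chr04:38883297-38883921 had 22.8 for Vegt, 10.8 for Otx1 and 42.7 for Foxh1, with summits within 57 bp and an H3K4me1 peak of 2.61. In both, each factor was above percentile 97 of its list. The region of rank 3, scaffold_51:1239891-1240606, had 28.3 for Vegt, 8.04 for Otx1 and 36.1 for Foxh1, and an H3K4me1 peak of 3.76. Chr03:31278788-31279486 held the highest Foxh1 value of the 10 strongest regions, 53.7, beside 19.7 for Vegt and 8.91 for Otx1, with all summits within 10 bp and no H3K4me1 peak. Chr08:72691416-72692376 held the highest Otx1 value of these 10, 11.3, beside 25.3 for Vegt and 30.1 for Foxh1. It also lacked the mark, and the next three-factor region lay 600 bp away. Over the 10 regions Vegt ranged from 18.6 to 28.8, Otx1 from 7.64 to 11.3 and Foxh1 from 30.1 to 53.7, and 7 of them overlapped H3K4me1.

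**Figure D2:**
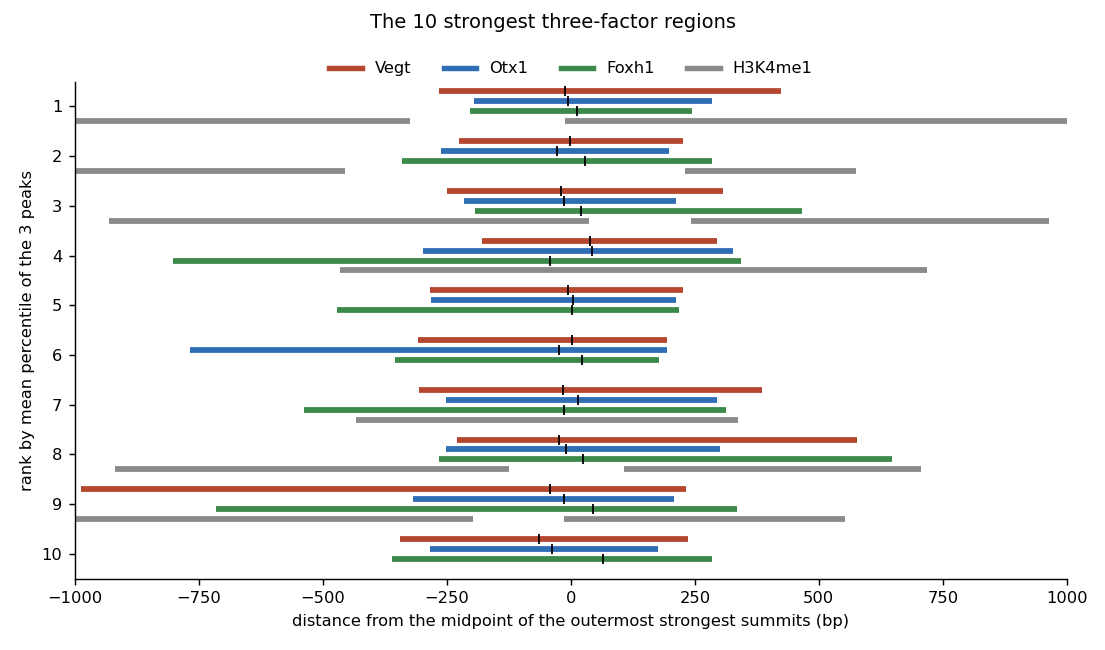
The 10 three-factor regions with the highest mean percentile (vertical axis, rank), drawn as peaks of Vegt, Otx1, Foxh1 and H3K4me1 (coloured bars) against the distance in bp from the midpoint of the outermost strongest summits; black ticks are the strongest summits and bars are cropped at 1000 bp. Summits of the 3 factors stack within 10 to 129 bp, and the regions of ranks 5, 6 and 10 have no H3K4me1 bar.

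Other regions were lopsided. At Chr05:117635003-117635678, led by Vegt, the Vegt peak had 23.0 (percentile 97.8) while Otx1 had 3.70 and Foxh1 9.95. Chr03:121752217-121752720, led by Otx1, had 7.43 for Otx1 (percentile 95.7) beside 5.26 for Vegt and 12.6 for Foxh1. In the region led most by Foxh1, Chr05:78552836-78553456, Foxh1 had 36.9 (percentile 98.0) beside 5.0 for Vegt and 3.32 for Otx1. The weakest region, Chr05:41609114-41609709, had 4.82 for Vegt, 3.23 for Otx1 and 8.14 for Foxh1, all below percentile 3, with summits 252 bp apart and no mark. A peak that stands high in one list was thus at times joined by peaks near the bottom of the other two.

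A summit is the position of a peak's highest signal. The 3 summits of a region nearly coincided. The median distance was 23 bp between Vegt and Otx1 (quartiles 11 and 42), 29 bp between Otx1 and Foxh1 (12 and 52) and 30 bp between Vegt and Foxh1 (14 and 57). The span from the outermost summit on one side to that on the other had a median of 45 bp, was at most 50 bp in 1325 regions (57.2%) and at most 100 bp in 2024 (87.4%). Vegt and Otx1 chromatin was sonicated to 100 to 500 bp, above their median distance, and overlapping peaks limit all of these distances from above. Pairs of factors without the third stood equally close: the medians were 22 bp for Vegt and Otx1, 29.5 bp for Otx1 and Foxh1 and 29 bp for Vegt and Foxh1. Distances hardly varied with strength. The median span was 44 bp in the stronger part of the regions (1157, divided at the median of the mean percentile) and 46 bp in the weaker part (1158).

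Which factor lay in the middle was close to even, with Foxh1 less often there. The Otx1 summit was in the middle of 864 regions (37.3%, interval 35.3 to 39.3), Vegt of 763 (33.0%, 31.0 to 34.9) and Foxh1 of 597 (25.8%, 24.0 to 27.6), and 91 had a tie. The closest pair was Vegt and Otx1 in 951 regions (41.1%), Otx1 and Foxh1 in 716 (30.9%) and Vegt and Foxh1 in 611 (26.4%). In the 2024 regions with a span of at most 100 bp the middle shares were 34.5% for Otx1, 33.6% for Vegt and 27.6% for Foxh1. In the 291 wider ones Otx1 was in the middle in 166 (57.0%, 51.1 to 62.8), Vegt in 82 (28.2%) and Foxh1 in 39 (13.4%). The orientation of a region is not known from the lists, so a left or right order was not read.

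**Figure D3:**
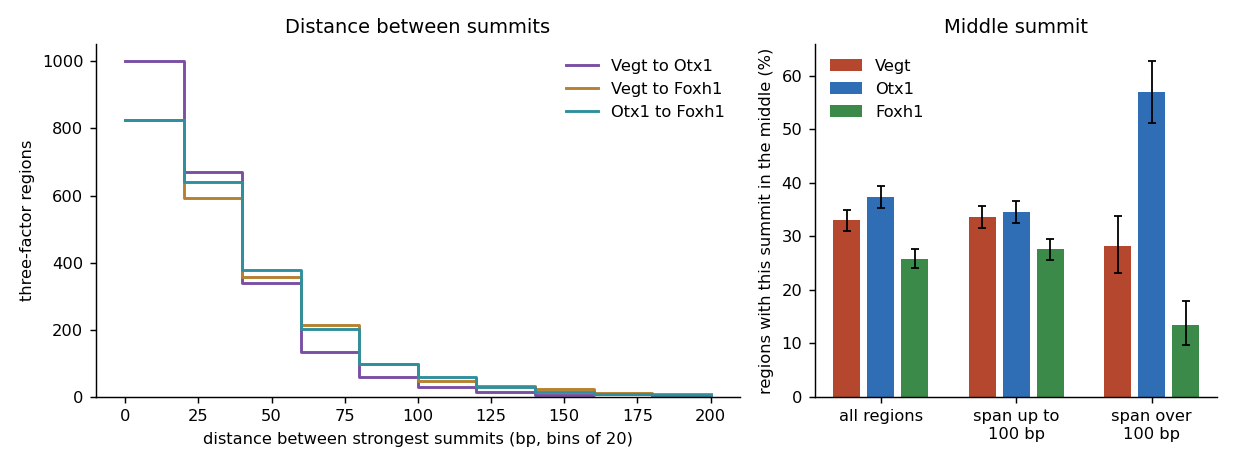
Left, number of three-factor regions (vertical axis) by distance in bp between the strongest summits of each pair of factors, up to 200 bp; right, percentage of regions with each factor's summit in the middle, for all 2315 regions and for spans up to and over 100 bp, with exact 95% binomial intervals as error bars. Most distances fall below 50 bp, and Otx1 takes the middle in 57.0% of the regions with spans over 100 bp.

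The extremes of the arrangement were named by their span. All 3 summits fell on the same base at Chr02:104016774-104017087, where Vegt had 19.2, Otx1 5.43 and Foxh1 12.4. At Chr06:60397158-60397609 the summits lay within 1 bp, with a Vegt peak of 33.1, an Otx1 peak of 8.35 and a Foxh1 peak of 14.9. The greatest span was 1039 bp at Chr02:131703341-131705180, a region of 1840 bp with 10.1 for Vegt, 5.29 for Otx1 and 10.6 for Foxh1 and an H3K4me1 peak of 4.06. The widest region, Chr04:17555985-17558173 with 2189 bp, had a span of 912 bp and no mark. The former held 2 Otx1 peaks and the latter 2 Foxh1 peaks, and the span was read from the stronger of the 2. Peaks of all 3 factors nevertheless shared 562 bp in the former and 605 bp in the latter. Among the 2271 regions with exactly 1 peak of each list the greatest span was 807 bp. The 5 tightest regions were 313 to 452 bp wide and the 5 with the greatest span 1231 to 2189 bp wide.

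H3K4me1, which the choice of regions did not use, overlapped 776 of the 2315 three-factor regions by at least 1 bp. This was 33.5% (interval 31.6 to 35.5), against 8.51% of all 55220 regions. Every other combination had a lower share: 21.1% (19.1 to 23.1) for Otx1 and Foxh1, 19.5% (14.3 to 25.6) for Otx1 alone, 15.2% (14.0 to 16.4) for Vegt and Foxh1, 9.32% (7.56 to 11.3) for Vegt and Otx1, 7.59% for Foxh1 alone and 3.40% for Vegt alone. The interval of the three-factor regions did not touch that of any other combination. These intervals cover counting error only and treat regions as independent, which neighbours that touch the same H3K4me1 peak are not. On each of the 10 chromosomes the share of the three-factor regions, 31.6% to 39.5%, was above that of all other regions, 6.40% to 8.78%, and above that of each combination of 2 factors there. The margin over Otx1 and Foxh1 was narrow on Chr10, at 39.5% (17 of 43 regions, interval 25.0 to 55.6) against 37.5%. On the scaffolds it was lower, with 17 of 93 regions marked (18.3%, 11.0 to 27.6), which was below the 32.1% of regions of Vegt and Otx1 and the 21.0% of regions of Otx1 and Foxh1 there.

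Part of this order moved with the width of the regions and with the way the mark was counted. Within the three-factor regions the share with the mark went from 23.5% in the narrowest quintile to 43.6% in the widest. Among regions 400 to 600 bp wide it was 29.4% (26.6 to 32.3) for the 3 factors, 18.7% (16.1 to 21.5) for Otx1 and Foxh1, 15.6% (13.7 to 17.8) for Vegt and Foxh1 and 7.27% (5.17 to 9.88) for Vegt and Otx1. Among regions 300 to 400 bp wide the intervals of the 3 factors (25.2%, 19.8 to 31.3) and of Otx1 and Foxh1 (19.1%, 14.7 to 24.2) overlapped. When the midpoint of the outermost summits had to lie inside an H3K4me1 peak, 394 three-factor regions remained (17.0%, 15.5 to 18.6), against 5.14% of all regions. By that count the margin was smaller over Otx1 and Foxh1, at 13.5% (11.9 to 15.2), and absent over Otx1 alone, at 18.5% (13.5 to 24.5). Regions of Otx1 alone were marked in 20.3% (11.8 to 31.2) at 300 to 400 bp and in 22.2% (11.2 to 37.1) at 400 to 600 bp, and both intervals overlapped those of the three-factor regions. At these widths the share of the three-factor regions was therefore not separated from that of Otx1 alone, nor, below 400 bp, from that of Otx1 and Foxh1. Of the 205 regions of Otx1 alone, however, 72 (35.1%) lay on scaffolds, against 4.02% of the three-factor regions. The part of this difference in the shares was not tested.

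**Figure D4:**
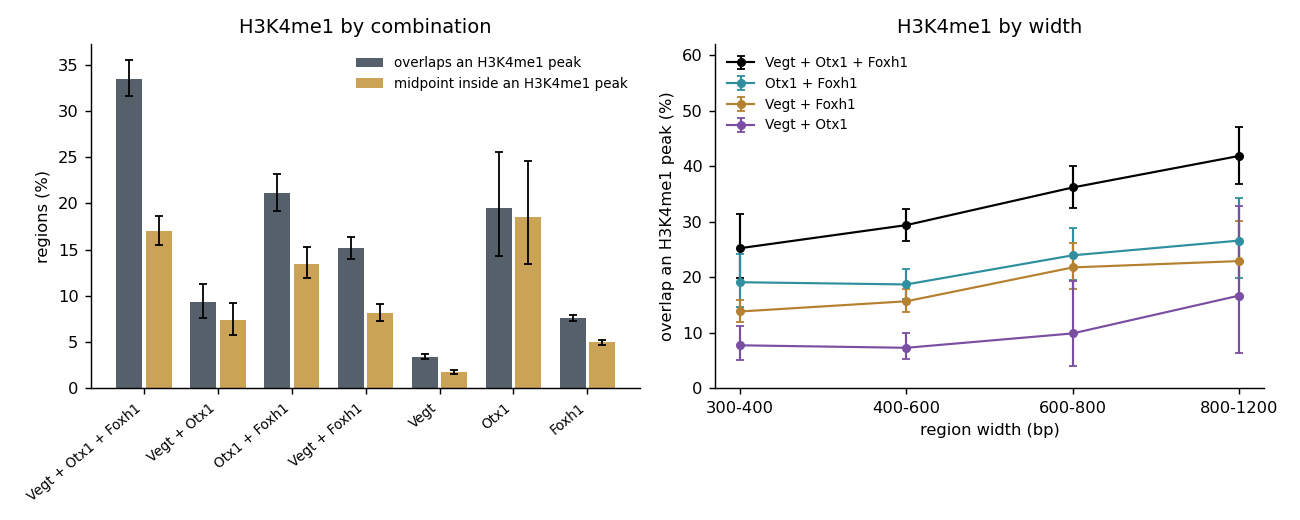
Left, percentage of regions of each combination that overlap an H3K4me1 peak (dark) or have the midpoint of their outermost summits inside one (light); right, percentage that overlap one by region width in bp, for the combinations with 2 or 3 factors. Error bars are exact 95% binomial intervals; the three-factor regions lead at 33.5% by overlap and at 29.4% among regions 400 to 600 bp wide.

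Peak strength hardly differed between marked and unmarked three-factor regions. With and without H3K4me1 the median fold enrichment was 8.77 and 8.77 for Vegt, 4.97 and 4.81 for Otx1, and 26.4 and 26.6 for Foxh1. By quintiles of Vegt strength the share that overlapped the mark stayed between 32.4% and 34.3%. Counted by the midpoint, the share was 18.8%, 19.0%, 16.4%, 16.4% and 14.5% from the weakest to the strongest Vegt quintile. The midpoint intervals of the weakest (15.3 to 22.7) and the strongest (11.4 to 18.0) overlapped. By quintiles of Foxh1 strength the share that overlapped the mark was 34.6%, 32.0%, 37.6%, 33.9% and 29.6% from the weakest to the strongest. Only Otx1 showed a high upper quintile, with 36.1%, 27.6%, 29.2%, 33.0% and 41.7%, and that quintile was also wider, with a median of 650 bp. The shares did not rise steadily, since the weakest Otx1 quintile was high as well. Its interval (31.7 to 40.6) overlapped that of the strongest (37.2 to 46.3). Regions of Vegt and Otx1 without Foxh1 did differ in strength by the mark, since their median Vegt fold enrichment was 9.83 in the 90 with the mark and 19.5 in the 876 without. Of these regions 109 lay on scaffolds, where 32.1% were marked, against 9.32% over the whole combination. The part of the scaffolds in this difference was not tested.

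Within the same quintile of the Foxh1 list, three-factor regions were marked in 36.0%, 35.7%, 29.9%, 35.5% and 33.2% of cases from the weakest to the strongest quintile, and regions of Otx1 and Foxh1 in 27.3%, 17.6%, 33.1%, 23.6% and 18.7%. In the middle quintile the latter were thus marked more often (25.1 to 41.9, against 23.4 to 37.1), and in the weakest, with 50 and 44 regions, the intervals also overlapped (22.9 to 50.8 and 15.0 to 42.8). By the midpoint, regions of Otx1 and Foxh1 had the higher share in the weakest quintile (20.5% against 16.0%) and in the middle one (20.0% against 12.5%). Regions with Foxh1 only were marked in 6.78%, 6.69%, 7.40%, 8.55% and 9.37% of cases, but they were narrower, with median widths of 253 to 365 bp against 491.5 to 600 bp in the three-factor regions. Regions with top-decile peaks of all 3 factors had the mark in 26 of 42 cases (61.9%, 45.6 to 76.4), against 41.2% with 2 such peaks, 29.4% with 1 and 34.5% with none. Their median width differed as well, from 547 bp with none to 589, 655 and 693 bp with 1, 2 and 3.

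Marked and unmarked regions had nearly the same summit arrangement. The median span was 46 bp with the mark and 44 bp without, and Otx1 was in the middle of 39.2% and 36.4%. Marked regions were somewhat wider, with a median of 620 bp against 558 bp. The stretch common to the 3 factors was 344.5 bp against 308 bp.

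The mark lay beside the summits as often as over them. Of the 776 marked regions, the midpoint was inside an H3K4me1 peak in 394 (50.8%) and outside in 382, and 214 (27.6%) overlapped 2 or more H3K4me1 peaks, of which 175 had one on either side of the midpoint. Over all combinations the midpoint was inside in 2841 of the 4701 marked regions. A near-even split was also found for Vegt alone (260 of 506) and for Vegt and Foxh1 (289 of 536). The midpoint was more often inside for Foxh1 alone (1567 of 2406), Otx1 and Foxh1 (222 of 347), Vegt and Otx1 (71 of 90) and Otx1 alone (38 of 40). H3K4me1 peaks covered a median of 65.7% of a marked three-factor region and all of it in 201 (25.9%). The summit of the strongest overlapping H3K4me1 peak was a median of 300.5 bp from the midpoint (quartiles 203 and 456). It lay within 150 bp in 113 regions (14.6%). The factor summits of a region, by contrast, spanned a median of 45 bp. The strongest H3K4me1 peak of a marked region had a median fold enrichment of 3.41 (quartiles 2.98 and 3.97). The highest, 6.80, was at Chr03:132586851-132587174, where the factors were of moderate strength, with 10.7 for Vegt, 4.81 for Otx1 and 20.0 for Foxh1. Next came Chr06:977753-978339 with 6.55, beside 12.7 for Vegt, 6.16 for Otx1 and 27.5 for Foxh1.

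From the side of the mark, three-factor regions accounted for a small part. Of the 15925 H3K4me1 peaks, 954 (5.99%) overlapped one, and 11158 (70.1%) held no factor peak. The 954 were wider than the list as a whole, with a median of 753 bp against 536 bp. Their share was 5.02%, 4.18%, 5.02%, 6.19% and 9.54% from the weakest to the strongest quintile of H3K4me1 peaks, and peaks of the strongest quintile were also the widest, with a median of 705 bp. Most three-factor regions without the mark were far from any: of 1516 on a sequence with an H3K4me1 peak, 98 had one within 1000 bp and 386 (25.5%) within 10 kb, and the median distance was 40708 bp. Unmarked regions of the other combinations lay farther still from the mark. Their median distances ran from 49353 bp for Otx1 and Foxh1 to 75398 bp for Otx1 alone. Their shares within 10 kb ran from 12.2% for Otx1 alone to 22.3% for Otx1 and Foxh1. Among the three-factor regions without the mark were strongly occupied ones. Chr04:47690014-47690552 had 26.0 for Vegt, 6.94 for Otx1 and 39.5 for Foxh1, and Chr09:61124879-61125412 had 29.1, 8.80 and 28.9 for the same factors. H3K4me1 was read in vegetal tissue of a later stage and Vegt and Otx1 in whole embryos, so tissue and stage cannot be told apart from absence of the mark. The names of the H3K4me1 peaks contain the letters meso, whereas the labels call the tissue vegetal.

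Three-factor regions were spread over all 10 chromosomes and made up a similar part of the bound regions on each. Their number went from 43 on Chr10 to 349 on Chr01, and their share of regions from 3.87% on Chr06 to 4.90% on Chr08. Another 93 lay on 51 scaffolds, where they were 3.45% of the regions. The median gap from one three-factor region to the nearest other was 104726 bp (quartiles 10354 and 304408; 2283 regions with another on the same sequence). A gap of at most 10 kb was found for 564 (24.7%) and of at most 50 kb for 885 (38.8%). The combination of Vegt and Foxh1 had more regions, 3537, and a similar median gap of 94305 bp, yet 14.8% of its regions had another within 10 kb. For Otx1 and Foxh1 these values were 156799 bp and 15.8%, and for Vegt and Otx1 355244 bp and 5.60%. Short gaps were thus more frequent among three-factor regions than among the more numerous regions of Vegt and Foxh1.

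They also lay among other bound regions. The gap to the nearest region of any combination had a median of 1488 bp, against 4826 bp over all regions. Within 10 kb there were on average 2.40 other regions, against 1.42 over all. No neighbour within 10 kb was found for 15.8% of three-factor regions and 34.2% of all regions, and 5 or more neighbours for 14.2% and 5.03%. Regions of Otx1 and Foxh1 were the most like them, with a median gap of 2057 bp and an average of 1.99 neighbours. Gaps are measured from edge to edge, and the three-factor regions were wider, with their median of 581 bp; the part of width in these gaps was not tested.

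Marked regions had another three-factor region, marked or not, closer by than unmarked ones had. Gaps run from edge to edge, and marked regions were wider, with a median of 620 bp against 558 bp. The part of width in these gaps was not tested. With H3K4me1 the median gap to the nearest other three-factor region was 72512 bp and 31.2% had one within 10 kb (n = 773), and without the mark these were 120102 bp and 21.4% (n = 1510). The gap to a region of any combination was 1057 bp and 1792.5 bp. When three-factor regions at most 10 kb apart were joined into runs, 564 regions fell into 248 runs, of which 199 had 2 members, 35 had 3, 9 had 4 and 5 had 5. Regions in runs were marked in 42.7% of cases (38.6 to 46.9) and lone regions in 30.6% (28.4 to 32.8). Their strengths were alike, with medians of 9.11 and 8.68 for Vegt, 4.90 and 4.86 for Otx1, and 26.1 and 26.7 for Foxh1. Of the 316 neighbouring pairs in runs, both had the mark in 94, neither in 132 and one in 90, and in 38 of the 94 a single H3K4me1 peak touched both. Neighbours that touch the same H3K4me1 peak are not independent, which the intervals do not take into account.

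**Figure D5:**
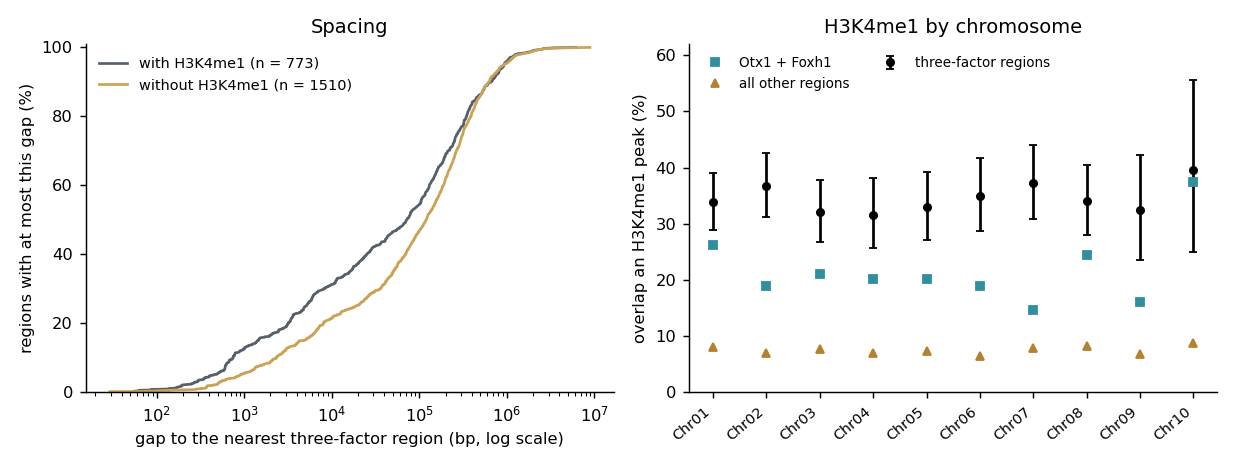
Left, cumulative percentage of three-factor regions by the gap in bp (log scale) to the nearest other one, with H3K4me1 (n = 773) and without (n = 1510); right, percentage of regions on each chromosome that overlap an H3K4me1 peak, for three-factor regions with exact 95% binomial intervals, regions of Otx1 and Foxh1, and all other regions. Within 10 kb the curves stand at 31.2% and 21.4%, and on all 10 chromosomes the three-factor share is above both others. On Chr10 the three-factor share is 39.5% and that of Otx1 and Foxh1 37.5%.

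The windows of 50 kb with the most three-factor regions differed from each other in the mark. On scaffold_48, 7 three-factor regions among 11 bound regions lay between 14141 and 49659, with Vegt fold enrichments of 9.18 to 22.9, Otx1 of 5.06 to 10.3 and Foxh1 of 17.6 to 32.5. None of the 7 was marked and no H3K4me1 peak lay between these ends. On Chr04, between 53293659 and 53329080, all 6 three-factor regions among 13 bound regions were marked, and 14 H3K4me1 peaks lay there. Their fold enrichments were 5.17 to 19.8 for Vegt, 4.02 to 5.57 for Otx1 and 9.95 to 28.3 for Foxh1. On Chr03, between 86580554 and 86609066, 6 three-factor regions stood among 15 bound regions, and 2 of them were marked, with 5 H3K4me1 peaks. In these windows dense joint occupancy was therefore seen with the mark on every region, on some and on none, and the window without it held the highest single Otx1 value, 10.3. That window lay on a scaffold, and on scaffolds 18.3% of three-factor regions were marked, against 33.5% of all three-factor regions. A window of 6 began at 5 three-factor regions, so those on Chr03 and Chr04 were picked from ties, by sequence name and start.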

How the data were processed

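The 4 peak lists were read as deposited. Per the labels, Vegt and Otx1 chromatin came from stage 8 embryos and H3K4me1 chromatin from stage 10.5 vegetal tissue, each in biological duplicate, and the authors made the Foxh1 list from published data. Per the peak names, each deposited list holds peaks of pooled replicates. Reads were aligned with Bowtie2 2.2.7, per the submitters' processing notes. The factor lists are named as IDR (irreproducible discovery rate) optimal peaks, and the H3K4me1 list is not. Peak caller, filter thresholds, any other filters and genome build were not given in the sources used here. Column 7 of the deposited lists was read as the authors' fold enrichment ratio and column 10 as the summit's distance from the start of the peak. Positions are printed counting from 1.

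Peaks of the 3 factors were joined where they overlap by at least 1 bp (Python 3.11.15, pandas 2.3.3). The joining was tested on simulated intervals and against bedtools 2.31.1. A factor's value in a region is that of its strongest peak, a percentile is its rank within the whole list, and the midpoint lies between the outermost of the 3 strongest summits. Intervals came from scipy 1.17.1. Regions named in the text were the strongest, the weakest, the most lopsided, those with the strongest mark or none, those with the smallest or greatest span, the densest windows of 50 kb and those nearest to the limit of the rule; not all picks are printed. The members and lists were chosen with earlier results of these data known. No genome or annotation of the files' build was used here, so sequences, motifs and genes are not reported, and RNA tables were not used. Samples were grouped by their titles. Other ways to join peaks, count the mark, choose summits and limit the lists were tried.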

Additional observations from a re-analysis of the deposited data

How the results depend on the processing

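Over 15 results and 52 alternatives, 40 values stayed within their interval or within 1.5 times the count, and 12 moved. For shares that interval was the binomial one, and for medians a 95% interval taken from the ranked values. For ratios of medians with the mark to those without, it ran between quotients of opposite ends of the median intervals. The number of three-factor regions was 703 with the stronger 50% of each list and 280 with as many of the strongest peaks as the shortest list holds, both of which use fewer peaks by construction. The share with H3K4me1 was 36.0% and 41.1% under these, 17.0% when the midpoint had to lie inside a peak of the mark, 37.8% with a peak within 1000 bp, 22.9% with the stronger 50% of H3K4me1 peaks, and 29.4% in regions 400 to 600 bp wide, which was chosen after seeing the data. The median gap was 118271 bp with all summits within 200 bp, 451884 bp with the stronger 50% and 1307361 bp with lists of the shortest length. The ratio of the median Vegt fold enrichment with the mark to that without was 0.916 by the midpoint. Peak strengths relative to the list, middle shares and summit distances moved under none of the alternatives run. For these results each alternative kept at least 2200 of the 2315 regions, so little change was possible. The shortened lists were not tried for them. Each list pools its replicates, so leaving out a replicate was not possible. No paired analysis was possible because the results come from no test and the lists carry no replicate. The depth and the background of the lists are unknown, so a missing peak is not shown to be missing binding, and no difference here has a replicate check.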
